A study of Mus musculus with 8 samples.

Results

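The subunits of the oxidative phosphorylation machinery were followed through nuclei of mouse striatum from 8 inbred strains. Members were all rows of the count matrices whose gene symbol begins with mt- or with the subunit roots Ndufa, Ndufb, Ndufc, Ndufs or Ndufv plus a number, Uqcr, Cox4 to Cox8 or Atp5, together with Sdha, Sdhb, Sdhc and Sdhd. This rule uses names only and gave 98 of 32285 rows. Of these, 85 genes lie in the nuclear genome, with 36 in complex I, 4 in complex II, 8 in complex III, 20 in complex IV and 17 in complex V. The other 13 are the protein-coding genes of mitochondrial DNA, with 7 in complex I, 1 in complex III, 3 in complex IV and 2 in complex V. All 98 were detected, and together they held 6795297 counts, which is 2.62% of the counts of the 55672 nuclei with a cluster name. The nuclear members held 0.661% and the mt- members 1.96%.

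Classical laboratory strains were C57BL/6, A/J, NOD/ShiLtJ, 129S1/SvImJ and NZO/HlLtJ, and wild-derived strains were WSB/EiJ, PWK/PhJ and CAST/EiJ. All mice were aged 12 weeks, and the labels name no treatment. The sources disagree on the C57BL/6 substrain, so no substrain is given here. Each of 4 batches held 1 mouse of every strain, 4 males and 4 females, giving 32 mice. Nuclei of the 8 mice of a batch were pooled before droplet capture and were assigned back to strains by genotype, so a strain and a batch together define 1 mouse. RNA and open chromatin were read from the same nuclei (10x Multiome), and 18 clusters carry the authors' names. Reads of all strains were counted against 1 reference genome.

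Oxidative phosphorylation makes most of the ATP of neurons. Complex I (NADH dehydrogenase) and complex II (succinate dehydrogenase) pass electrons from metabolites to ubiquinone, complex III (cytochrome bc1) passes them to cytochrome c, and complex IV (cytochrome c oxidase) passes them to oxygen. Complexes I, III and IV pump protons, and complex V (ATP synthase) uses the proton gradient to make ATP. Complex II is coded entirely by nuclear genes, while the other complexes mix subunits made from nuclear mRNA in the cytoplasm with a few core subunits made from mitochondrial DNA inside the organelle. Several complex IV subunits have tissue isoforms, so that Cox4i2, Cox6a2, Cox6b2, Cox7a1, Cox7b2 and Cox8b stand beside the widely used Cox4i1, Cox6a1, Cox6b1, Cox7a2, Cox7b and Cox8a. In nuclei, nuclear-coded mRNA is counted near its source, whereas mt- RNA is made inside mitochondria. Whether mt- counts came from mitochondria that stayed with their own nucleus or from free RNA in the pool was not tested.

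Annotated nuclei per mouse ranged from 944 to 4416, and counts per mouse from 3785535 to 23245935. Batch 3 was the shallowest, with a median of 3232 counts (unique molecular identifiers, UMIs) per nucleus beside 4593 to 4931 in the other batches. Cluster markers were largely highest in the cluster of that name. Tac1 was higher in the cluster Drd1+ neuron_2, Isl1 in Chat+ interneurons, Pdgfra in fibroblasts, Rgs5 in endothelium, and Sst, Npy and Lhx6, listed for Nxph1+ interneurons, in Sst+ interneurons. The mural cluster also held Penk at 503 counts per 1000000 counts (CPM). Of 54141 distinct barcode sequences, 1517 (2.80%) occurred in more than 1 batch. Nuclei of over 15% mitochondrial counts had been removed by the authors, and 13.6% of those kept were over 5%.

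The starts of the nuclear genes were examined in RefSeq promoter windows of 300 bases (250 before to 50 after the start, GRCm38.p6), available for 69 of the 85 nuclear members in 74 windows. Motifs of 3 factors known as regulators of respiratory genes were searched on both strands: the 10-base palindrome of NRF1 (in capitals in the Cox6a1 sequence), TCAAGGTCA for the estrogen-related receptors and AAGATGGC for YY1. NRF1 letters stood in 5 windows (6.76%, beside 0.971% of all 32851 windows), receptor letters in 2 (2.70% beside 0.423%) and YY1 letters in 10 (13.5% beside 2.75%), and no window held letters of more than 1. The NRF1 windows belong to Atp5g2, Atp5k, Cox6a1, Ndufa11 and Uqcrc1. The receptor windows belong to Atp5g3 and Sdhd. YY1 letters stood at Atp5f1, Atp5j, Atp5j2, Ndufa3, Ndufa9, Ndufb8, Ndufc1, Ndufs4, Ndufs6 and Ndufs7. Of the 74 windows, 71 (95.9%) overlapped 1 of the 291715 deposited accessible regions by at least 1 base, beside 53.1% of all windows. The windows of Cox7b2, Cox7a1 and Cox8b, all of isoform genes of complex IV, did not.

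The windows shown are 1 for each motif, with the motif letters in capitals, and those of 3 isoform genes of complex IV that held none of the motifs. Cox6a1 codes the widely used subunit 6A (chr5:115348909-115349208, minus strand), Sdhd a membrane anchor of succinate dehydrogenase (chr9:50603800-50604099, minus strand), and Ndufs4 an accessory subunit of complex I (chr13:114388045-114388344, minus strand). Cox7b2 (chr5:71548156-71548455, minus strand) and Cox7b (chrX:106015450-106015749, plus strand) code alternative forms of subunit 7B, and Cox6b2 (chr7:4753045-4753344, minus strand) the alternative form of subunit 6B. In Sdhd the motif lies on the opposite strand.
Cox6a1: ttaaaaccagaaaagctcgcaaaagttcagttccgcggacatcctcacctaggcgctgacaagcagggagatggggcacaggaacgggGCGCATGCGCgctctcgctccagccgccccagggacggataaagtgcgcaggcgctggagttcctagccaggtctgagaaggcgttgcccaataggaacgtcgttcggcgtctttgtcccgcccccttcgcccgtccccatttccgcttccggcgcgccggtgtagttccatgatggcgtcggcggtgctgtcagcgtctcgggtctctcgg
Sdhd: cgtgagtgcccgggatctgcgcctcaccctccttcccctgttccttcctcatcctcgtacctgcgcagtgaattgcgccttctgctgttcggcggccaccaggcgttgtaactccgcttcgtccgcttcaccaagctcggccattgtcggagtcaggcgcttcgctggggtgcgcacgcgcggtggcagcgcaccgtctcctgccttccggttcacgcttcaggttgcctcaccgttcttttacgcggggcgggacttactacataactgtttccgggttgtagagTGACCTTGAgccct
Ndufs4: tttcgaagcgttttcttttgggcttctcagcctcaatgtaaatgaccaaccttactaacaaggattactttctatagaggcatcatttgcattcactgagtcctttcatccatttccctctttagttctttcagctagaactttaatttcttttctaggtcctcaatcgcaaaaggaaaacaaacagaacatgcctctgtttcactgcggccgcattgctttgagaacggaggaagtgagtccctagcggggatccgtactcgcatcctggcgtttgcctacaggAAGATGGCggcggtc
Cox7b2: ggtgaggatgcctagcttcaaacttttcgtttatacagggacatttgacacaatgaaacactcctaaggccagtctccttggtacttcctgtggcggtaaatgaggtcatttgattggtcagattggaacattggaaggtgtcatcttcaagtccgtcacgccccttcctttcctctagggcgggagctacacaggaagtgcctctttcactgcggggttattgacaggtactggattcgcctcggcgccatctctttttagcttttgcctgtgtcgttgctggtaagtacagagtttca
Cox7b: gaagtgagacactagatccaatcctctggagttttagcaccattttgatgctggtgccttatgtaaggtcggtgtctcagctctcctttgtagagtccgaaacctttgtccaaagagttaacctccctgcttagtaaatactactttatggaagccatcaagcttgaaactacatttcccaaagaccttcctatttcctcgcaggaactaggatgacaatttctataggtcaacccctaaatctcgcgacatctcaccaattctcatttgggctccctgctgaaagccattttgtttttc
Cox6b2: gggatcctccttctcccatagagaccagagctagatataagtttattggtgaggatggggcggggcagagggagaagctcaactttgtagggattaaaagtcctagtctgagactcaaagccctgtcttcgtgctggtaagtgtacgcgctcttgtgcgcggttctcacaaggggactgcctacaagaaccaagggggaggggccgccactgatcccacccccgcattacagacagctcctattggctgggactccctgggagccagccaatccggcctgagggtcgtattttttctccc
The Cox7b window overlapped an accessible region by at least 150 bases. The Cox6b2 and Ndufs4 windows overlapped one by fewer than 150 bases, and the Cox7b2 window overlapped none. A match is a run of letters and not a measured binding site.

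Mitochondrial counts per nucleus were nearly the same in most clusters, although total counts per nucleus were not. Drd1+ projection neurons, which carry the direct striatal pathway, had a median of 6505 UMIs, of which 72 were mt-. Drd2+ neurons of the indirect pathway had 5953 and 69. Oligodendrocytes, the myelin-forming cells, had 1640 UMIs in all and 58 mt- UMIs, and macrophages 1432 and 56. Apart from endothelium and ependyma, the mt- median lay between 56 and 85 in every cluster. Endothelium, which lines vessels, had 111 mt- UMIs, and ependyma, the ciliated lining of the ventricles, had 225. Expressed as a percent of each nucleus, the median mt- share ran from 0.822% in Chat+ interneurons to 4.56% in endothelium and 8.70% in ependyma. These levels across clusters are a description without a test, since the clusters were made from the same counts.

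**Figure D1:**
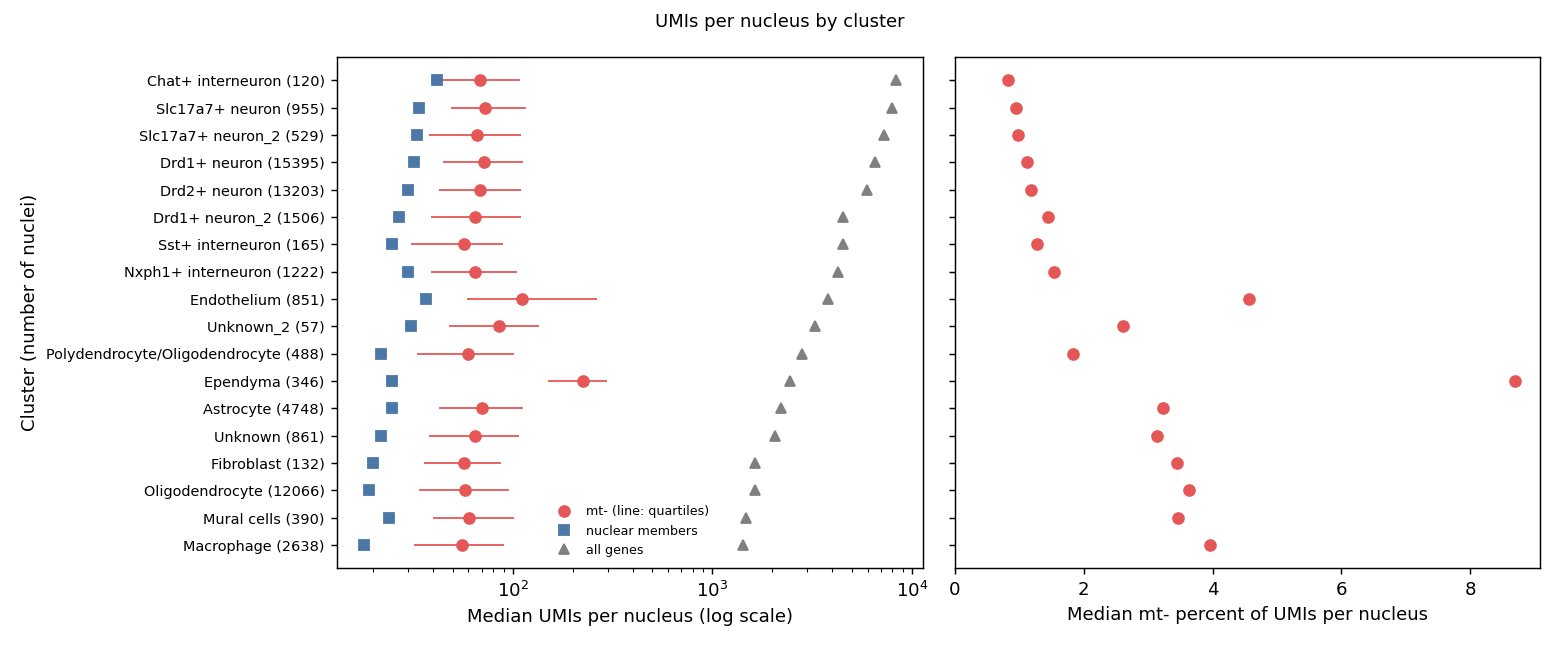
Median UMIs per nucleus in the 18 clusters (left, log axis: grey all genes, red mt- members with quartiles, blue nuclear members) and the median mt- percent per nucleus (right). The mt- medians stay between 56 and 85 UMIs in all clusters but endothelium (111) and ependyma (225), while the median over all genes falls from 8370.5 to 1432.

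Nuclear members varied less than total counts as well. Their median was 32 UMIs per nucleus in Drd1+ neurons, 30 in Drd2+ neurons, 25 in astrocytes, 19 in oligodendrocytes and 18 in macrophages. The nuclear share of the summed counts of all nuclei was 0.53% in Drd1+ neurons and 1.25% in oligodendrocytes. The SD of the shares of single mice was 0.037 and 0.223 (n = 32 mice each). Cytoplasmic ribosomal protein mRNAs, set beside them as a measure of cytoplasmic mRNA, had medians of 77, 72, 66, 56 and 53 UMIs in those 5 clusters. In a share, more transcripts of these genes and fewer transcripts of all others cannot be told apart. For every 100 mt- counts there were 37.0 nuclear member counts in Drd1+ neurons, 36.4 in Drd2+ neurons, 30.5 in astrocytes, 28.8 in oligodendrocytes and 12.1 in ependyma. The ratio was highest in Chat+ interneurons, at 45.2. Within mice, the 13 mt- members stood higher in Drd2+ than in Drd1+ neurons in 20 (mt-Nd6) to 28 (mt-Nd2) of 32 mice, with ratios of the means of 1.01 to 1.08. The median ratio was 1.06 over the mt- members and 1.05 over the nuclear members. The 13 mt- members all had their highest CPM in ependyma. Of the 85 nuclear members, 31 were highest in endothelium, 21 in macrophages, 13 in the cluster named Unknown_2 and 12 in fibroblasts. The last 2 clusters are small, with 57 and 132 nuclei, and 6 of the 13 and 2 of the 12 top ranks rest on under 20 counts. No member reached 4 times its level in the next cluster with at least 20 counts.

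Isoform genes of complex IV were unevenly distributed over clusters. Cox4i2, the isoform known from lung and from oxygen-sensing cells, stood at 48.6 CPM in the mural cluster and 28.3 CPM in endothelium, beside 0.759 CPM in Drd1+ neurons. Ndufa4l2, a relative of Ndufa4 that is known as a hypoxia-inducible gene, likewise stood at 99.5 CPM in the mural cluster and 74.6 CPM in endothelium, beside 0.413 CPM in Drd1+ neurons. Both genes had their highest level in the mural cluster. Cox6a2, the isoform known from heart and muscle, was highest in Nxph1+ interneurons at 11.5 CPM, on 65 counts, and stood at 1.12 CPM in Drd1+ neurons. Cox7b2 stood at 10.6, 11.5 and 10.3 CPM in Drd1+ neurons, Drd2+ neurons and astrocytes, beside 1.08 CPM in oligodendrocytes and 1.00 CPM in macrophages. Cox6b2, known as a testis form, stood at 1.33 and 1.5 CPM in the same neurons, and at 24.0 CPM in oligodendrocytes and 20.8 CPM in astrocytes. Its highest levels, on 17 and 11 counts, were 83.9 CPM in Unknown_2 and 43.3 CPM in fibroblasts. The widely used forms were spread over all clusters: Cox4i1 stood at 239 CPM in Drd1+ neurons and 720.5 CPM in oligodendrocytes, and Cox8a at 275 and 815 CPM. Cox8c had 1 count in all, and Cox7a1 and Cox8b, muscle forms, had 222 and 65 counts over all nuclei.

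The make-up of the mt- counts differed between clusters by a few percentage points at most, chiefly in ependyma and endothelium. In 10 clusters (the 9 with enough mice for a test, and ependyma), mt-Co3 made up 18.2% of mt- counts in endothelium and 21.3% in ependyma, the lowest and the highest. For mt-Co1 the range was 8.69% in ependyma to 11.7% in Drd1+ neurons. For mt-Cytb, the complex III subunit, it was 7.88% in Drd1+ neurons to 10.7% in ependyma. The range was 6.12% in ependyma to 8.83% in macrophages for mt-Nd1, and 2.44% in ependyma to 3.62% in endothelium for mt-Nd3. Outside ependyma and endothelium, mt-Cytb lay at 7.88 to 8.21%, mt-Nd1 at 8.45 to 8.83% and mt-Nd3 at 3.10 to 3.24%. There mt-Co3 lay at 19.1 to 19.5%, and mt-Co1 at 10.2 to 11.7%. Splits between mt-Atp8 and mt-Atp6, and between mt-Nd4l and mt-Nd4, are uncertain because these gene pairs overlap in the genome.

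The mt- share of counts moved with batch. It was 2.04%, 2.03%, 1.46% and 2.24% as the mean of 8 mice in batches 1 to 4. By mouse, in batches 1 to 4, it was 1.94, 1.87, 1.50 and 2.2% in 129S1/SvImJ, 1.82, 1.82, 1.24 and 1.99% in A/J, 2.04, 2.18, 1.46 and 2.23% in C57BL/6 and 2.06, 1.96, 1.29 and 2.33% in CAST/EiJ. It was 2.22, 1.98, 1.79 and 2.08% in NOD/ShiLtJ, 2.00, 2.27, 1.38 and 2.19% in NZO/HlLtJ, 2.15, 2.02, 1.52 and 2.44% in PWK/PhJ and 2.08, 2.12, 1.48 and 2.44% in WSB/EiJ. Over all nuclei, the mouse of batch 3 was the lowest in each of the 8 strains, and A/J was the lowest strain in 4 of 4 batches. Clusters differ in mt- share, and within Drd1+ neurons A/J was the lowest strain in 2 of 4 batches. There the NOD/ShiLtJ mouse of batch 3, at 1.48%, was above those of batches 1 and 2, at 1.36% and 1.38%. The nuclei of batch 3 also held fewer mt- UMIs, with a median of 33 per nucleus beside 75 to 78, and a higher Malat1 share, 5.62% beside 3.35 to 4.27%. The part of nuclear purity in these differences was not tested.

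**Figure D2:**
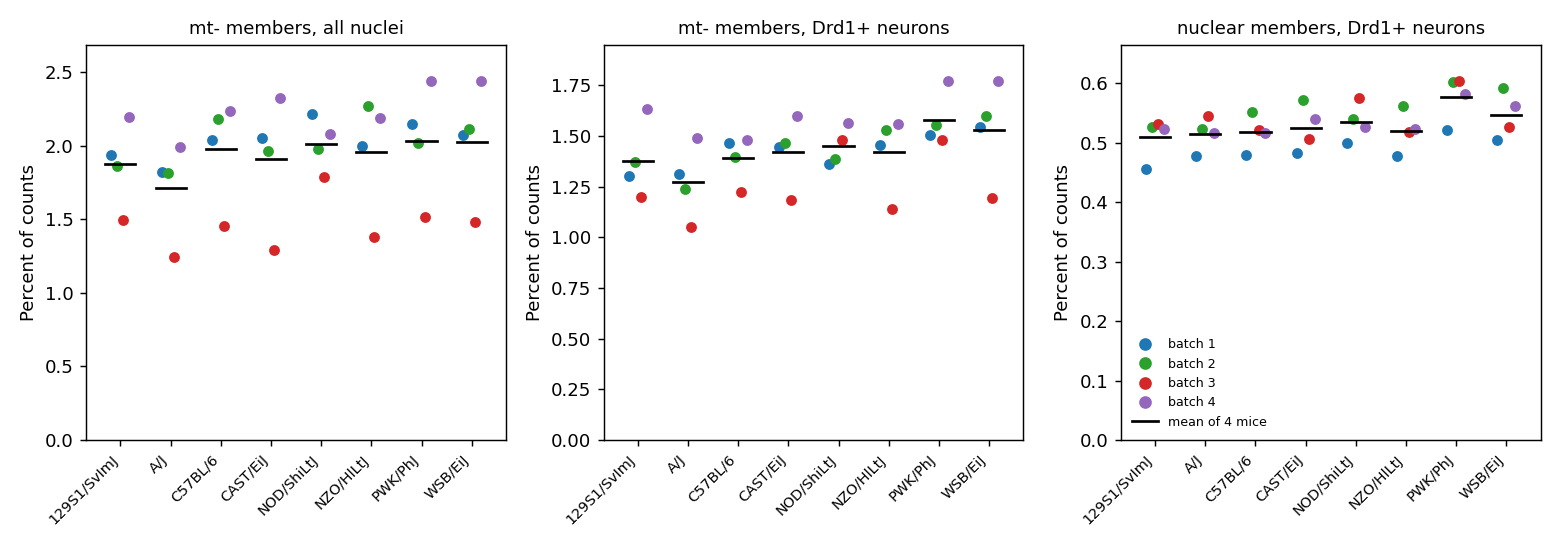
Percent of counts in mt- members over all nuclei (left) and in Drd1+ neurons (middle), and in nuclear members in Drd1+ neurons (right), 1 point per mouse coloured by batch, with the mean of 4 mice per strain as a bar. Batch 3 is the lowest of its strain in all 8 strains in the left panel, and PWK/PhJ has the highest mean in the right panel, 0.578%.

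Batch effects were tested in 9 clusters with at least 3 mice of every strain, on counts summed per mouse and cluster, with strain in the model (edgeR quasi-likelihood F test, Benjamini-Hochberg adjustment over all tested genes, called at an adjusted p under 0.05). In Drd1+ neurons 12 of 13 mt- members and 40 of 78 tested nuclear members changed with batch, beside 24.8% of all genes tested. Cytoplasmic ribosomal protein genes moved with batch as well, 69 of 88 being called in these neurons, and their share of counts was 1.32%, 1.45%, 1.24% and 1.40% in batches 1 to 4. The part of cytoplasmic RNA in the batch calls was not tested. In Drd2+ neurons the counts were 12 of 13 and 33 of 78 (21.7% of all genes), in oligodendrocytes 13 of 13 and 51 of 78 (17.8%), and in astrocytes 13 of 13 and 19 of 78 (4.92%). Summed over the 5 other clusters, 41 of 61 mt- tests and 60 of 300 nuclear tests were called, beside 10.1% of all tests. Single batches bore on these counts. The shares of all genes given above are those with all batches kept. Shares with a batch left out are not given here, so the losses are not a result about the members. Without batch 2 the nuclear calls came to 17 in Drd1+ neurons, 11 in Drd2+ neurons, 2 in astrocytes and 26 in the 5 other clusters. Without batch 3 the mt- calls came to 5 in oligodendrocytes, 3 in astrocytes and 2 in the 5 other clusters, and the nuclear calls to 20 in Drd2+ neurons, 29 in oligodendrocytes and 11 in the 5 other clusters.

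The nuclear members with the largest batch effects were high in batch 2. Cox6c, a small complex IV subunit, had medians of 159, 212, 147 and 172 CPM in batches 1 to 4 of Drd1+ neurons (adjusted p = 3.18e-10), and the 8 mice of batch 2 lay above the 24 others. Cox8a had medians of 255, 338, 243 and 270 CPM, and Uqcr11, a small complex III subunit, 71.6, 93.4, 71.3 and 76.5 CPM. Atp5md, a small ATP synthase subunit, and Ndufa1, an accessory subunit of complex I, were likewise highest in batch 2, at 131 and 62.8 CPM. These 5 nuclear members had the largest F of the batch term. Without batch 2 the batch term no longer called Cox8a (adjusted p = 0.112), Uqcr11 (0.330) and Ndufa1 (0.0508). Among the mt- members, mt-Nd5 and mt-Atp8 were lowest in batch 3. The summed mt- share of Drd1+ counts was lowest there as well, at 1.24% beside 1.42 to 1.61% as means of 8 mice. For mt-Nd5 the medians were 268, 293, 181 and 272 CPM, and no mouse of batch 3 reached the others. For mt-Atp8 they were 90.9, 111, 51.2 and 85.7 CPM. Only mt-Co1 was not called by batch in Drd1+ neurons (adjusted p = 0.293), although in oligodendrocytes its medians were 5039, 5398, 3495 and 5022 CPM (adjusted p = 5.79e-17). The make-up of mt- counts moved as well: mt-Atp8 made up 0.754% of mt- counts in batch 2 and 0.437% in batch 3 over all nuclei, with no overlap between either and the other mice.

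Strain effects were tested in the same model with batch as a term, 7 degrees of freedom and 4 mice per strain. In Drd1+ neurons the strain term called 25 of 78 nuclear members and 4 of 13 mt- members, beside 61.7% of all 13431 genes tested. In Drd2+ neurons it called 20 of 78 and 4 of 13, beside 55.9%. In oligodendrocytes it called 5 of 78 and 1 of 13 (34.8% of all genes), and in astrocytes 1 of 78 and 1 of 13 (21.5%). In the 5 other clusters 0 of 300 nuclear tests passed in edgeR (11 at an unadjusted p under 0.05, and 1 passed in DESeq2) and 1 of 61 mt- tests did, beside 10.6%. The members' share was below that of all genes in each cluster group, and nothing beyond these counts was tested. By complex, the Drd1+ calls were 11 of 36 in complex I, 3 of 4 in complex II, 1 of 8 in complex III, 5 of 13 in complex IV and 5 of 17 in complex V. Of the nuclear members called, 15 were called in both kinds of projection neuron, from nuclei of the same mice. This is 60% of the Drd1+ calls and 75% of the Drd2+ calls. The overlap over all genes was not counted, so these shares are not a result about the members. The 7 nuclear members too low to test in Drd1+ neurons were Cox4i2, Cox6a2, Cox6b2, Cox7a1, Cox8b, Cox8c and Ndufa4l2, all isoform genes. Leaving out batch 1, 2 or 3 left 14 nuclear calls in Drd1+ neurons, and without the batch term there were 11, with 0 mt- calls. With 1 batch left out, nuclear calls ran from 12 to 19 in Drd2+ neurons and from 1 to 5 in oligodendrocytes. Those of mt- members ran from 1 to 3 in Drd1+ and from 1 to 5 in Drd2+ neurons. The shares of all genes above belong to the fit with all batches and the batch term. They are not given for these alternatives, so the losses are not a result about the members.

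Cox7b2 had the largest strain effect among the members in projection neurons. The gene lies at chr5:71442823-71548205 (GRCm38.p6). In Drd1+ neurons it stood at 18.2, 17.1, 16.2 and 12.4 CPM in the 4 mice of 129S1/SvImJ (batches 1 to 4), and at 13.5, 14.8, 12.3 and 17.0 CPM in A/J. It stood at 14.4, 14.0, 10.7 and 11.7 CPM in C57BL/6 and at 19.6, 12.8, 13.1 and 13.4 CPM in NOD/ShiLtJ. These 4 strains were the high ones, and none of their mice overlapped the low ones. CAST/EiJ mice stood at 6.07, 3.88, 4.86 and 2.45 CPM, PWK/PhJ mice at 3.91, 5.89, 5.47 and 5.84 CPM and NZO/HlLtJ mice at 7.21, 4.44, 3.42 and 8.26 CPM. WSB/EiJ lay between, at 9.84, 6.91, 10.1 and 7.29 CPM, and overlapped NZO/HlLtJ. The strain term gave F = 22.7 (edgeR, adjusted p = 2.21e-11). The counts behind these values are few, 50 in CAST/EiJ and 288 in A/J.

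In Drd2+ neurons the same gene stood at 25.9, 25.2, 14.0 and 15.1 CPM in 129S1/SvImJ, 3.73, 2.55, 3.97 and 5.95 CPM in CAST/EiJ and 3.43, 6.10, 3.02 and 3.78 CPM in PWK/PhJ (F = 22.5, edgeR adjusted p = 1.30e-11). The mice of 129S1/SvImJ and those of the other pair did not overlap. When each strain was set against the other 7 in Drd1+ neurons, Cox7b2 was higher in 129S1/SvImJ by 0.93 on the log2 scale (SE 0.140, adjusted p = 3.29e-06), in A/J by 0.77, in NOD/ShiLtJ by 0.77 and in C57BL/6 by 0.55. It fell by 1.20 in CAST/EiJ (SE 0.203, adjusted p = 6.04e-06), by 0.92 in PWK/PhJ and by 0.75 in NZO/HlLtJ. Its widely used counterpart Cox7b fell by 0.28 in CAST/EiJ (adjusted p = 0.00132), and by 0.18, not called, without batch 3. The Cox7b2 call held under every alternative run, with adjusted p up to 1.63e-07 in Drd1+ neurons and 3.02e-07 in Drd2+ neurons. All strains were counted against 1 reference genome. For Cox7b2 and the other nuclear members, a strain difference in gene sequence therefore cannot be told apart here from one in RNA level.

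**Figure D3:**
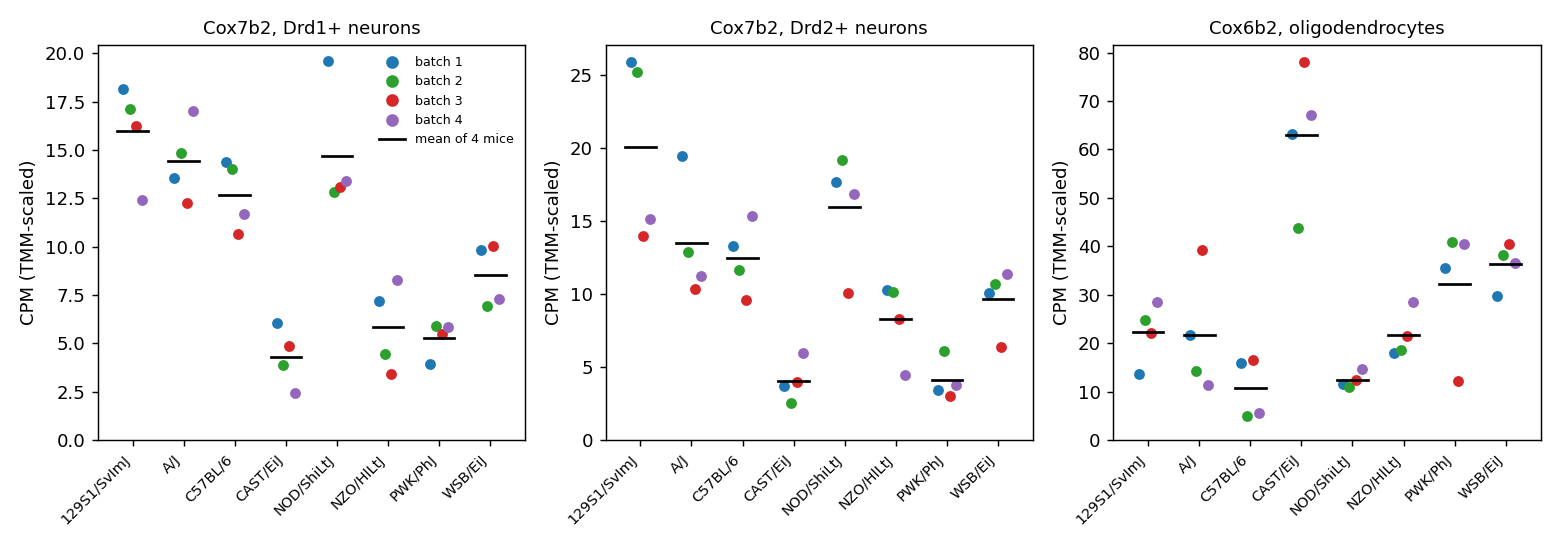
Cox7b2 in Drd1+ neurons (left) and Drd2+ neurons (middle) and Cox6b2 in oligodendrocytes (right), CPM after TMM scaling, 1 point per mouse coloured by batch, bars the mean of 4 mice. CAST/EiJ has the lowest mean for Cox7b2 in Drd1+ neurons (4.32 CPM) and the highest for Cox6b2 in oligodendrocytes (63.0 CPM).

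Cox6b2 was the member with the strongest strain effect in oligodendrocytes. This gene lies at chr7:4751792-4753094. Its 4 CAST/EiJ mice stood at 63.1, 43.8, 78 and 67.1 CPM, on 113 counts. The 28 other mice lay between 4.95 and 40.9 CPM, so that CAST/EiJ did not overlap them. C57BL/6 had the lowest mean, from 15.9, 4.95, 16.5 and 5.49 CPM on 28 counts. The strain term gave F = 16.3 (edgeR, adjusted p = 1.25e-12, and at most 1.73e-06 under every alternative run). Against the other 7 strains CAST/EiJ was higher by 1.58 on the log2 scale (SE 0.197, adjusted p = 1.57e-10), and C57BL/6 fell by 1.30 (SE 0.272, adjusted p = 0.000248). In astrocytes, where Cox6b2 had a similar level over all mice, CAST/EiJ had a mean of 13.9 CPM and NZO/HlLtJ of 32.5 CPM, and the strain term did not call it (adjusted p = 0.106). The difference between the clusters was not tested. The other nuclear members called by strain in oligodendrocytes were Atp5j (adjusted p = 0.0279), Sdhc (0.0360), Ndufb7 (0.0446) and Sdhb (0.0459), and in astrocytes Sdhb (0.0490). The calls of Atp5j (0.0720 to 0.139), Sdhc (0.0620 to 0.187) and astrocyte Sdhb (0.0545 to 0.312) were lost whichever batch was left out. Those of Ndufb7 and Sdhb in oligodendrocytes reached adjusted p-values of up to 0.405 and 0.298.

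Of the 36 nuclear complex I members tested, the 11 called by strain in Drd1+ neurons included accessory and core subunits, a smaller share than the 61.7% of all genes. Ndufs4, an accessory subunit whose loss causes Leigh-like disease (chr13:114287795-114388094), stood at 177, 167, 201 and 157 CPM in WSB/EiJ and 116, 114, 115 and 125 CPM in NZO/HlLtJ. WSB/EiJ was the highest strain with a lowest mouse inside the range of the others (109 to 161 CPM). The gene was called with F = 10.3 (edgeR, adjusted p = 9.34e-07), was higher in WSB/EiJ by 0.38 (SE 0.058) and fell by 0.27 in NZO/HlLtJ. Ndufs3, a core subunit of the peripheral arm, was low in CAST/EiJ, at 57.3, 55.0, 60.0 and 64.5 CPM, and in PWK/PhJ, at 58.4, 57.1, 69.0 and 63.3 CPM, beside a mean of 82.6 CPM in NOD/ShiLtJ (adjusted p = 5.99e-06). Ndufa6, an accessory subunit, stood at 47.8, 50.9, 62.7 and 55.7 CPM in PWK/PhJ and at 30.7, 34.3, 39.6 and 33.3 CPM in 129S1/SvImJ (adjusted p = 8.20e-06), and these mice did not overlap. Ndufb3 was low in CAST/EiJ, at 41.7, 50.2, 49.2 and 42.1 CPM beside 50 to 70.8 CPM in the others (adjusted p = 0.000666). In Drd2+ neurons the CAST/EiJ mice, at 46.3 to 53.0 CPM, lay below all 28 others, although the strain term there did not call Ndufb3 (adjusted p = 0.0539). Ndufb9 went the other way in CAST/EiJ, higher by 0.32 (adjusted p = 5.40e-05; its strain term reached up to 0.0548 with 1 batch left out), and Ndufv2, a core subunit, was higher in PWK/PhJ by 0.33 (adjusted p = 1.73e-05).

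In complex II, Sdha, Sdhb and Sdhc were called and Sdhd was not, beside 61.7% of all genes. Sdha, the flavoprotein that oxidises succinate (chr13:74322255-74350240), stood at 78.6, 71.8, 95.5 and 96.8 CPM in the C57BL/6 mice and at 55.1 to 79.6 CPM in the 28 others (F = 7.62, edgeR adjusted p = 2.30e-05). In Drd2+ neurons the C57BL/6 mice, at 83.3, 84.5, 90.5 and 95.3 CPM, lay above all others (54.9 to 75.2 CPM). Sdhb, the iron-sulfur subunit (chr4:140961271-140979198), was lowest in WSB/EiJ, at 30.2, 25.7, 36.9 and 29.9 CPM beside 33.4 to 58.0 CPM (adjusted p = 0.000467). It fell by 0.41 there (SE 0.089, adjusted p = 0.000697) and was higher in A/J by 0.26 and in C57BL/6 by 0.24. The A/J call was lost without batch 3 (a log2 rise of 0.20) or batch 4 (a log2 rise of 0.15). Sdhc, a membrane anchor, fell by 0.27 in PWK/PhJ and by 0.24 in NZO/HlLtJ. Sdha was also higher in PWK/PhJ, by 0.20 (adjusted p = 0.0205). The strain term's call of Sdhc had an adjusted p of up to 0.0772 when 1 batch was left out.

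In the remaining complexes, Cox7a2, the widely used subunit 7A, was high in PWK/PhJ, at 115, 130, 121 and 121 CPM, and had its lowest mean in C57BL/6, 86.3 CPM (adjusted p = 2.12e-05). Complex III had a single call, Uqcr10 (adjusted p = 0.0413), which was lost whichever batch was left out (0.0545 to 0.479), and its most abundant member Uqcrh was not called. In complex V the largest F was that of Atp5f1, a peripheral stalk subunit (adjusted p = 0.00637), higher in WSB/EiJ by 0.22, and its call reached an adjusted p of up to 0.120 with 1 batch left out. The 8 nuclear members with the smallest p-values in Drd1+ neurons (Cox7b2, Ndufs4, Ndufs3, Ndufa6, Cox7a2, Sdha, Sdhb and Ndufb3) were called under every alternative run, with the highest adjusted p, 0.0196, for Sdhb.

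**Figure D4:**
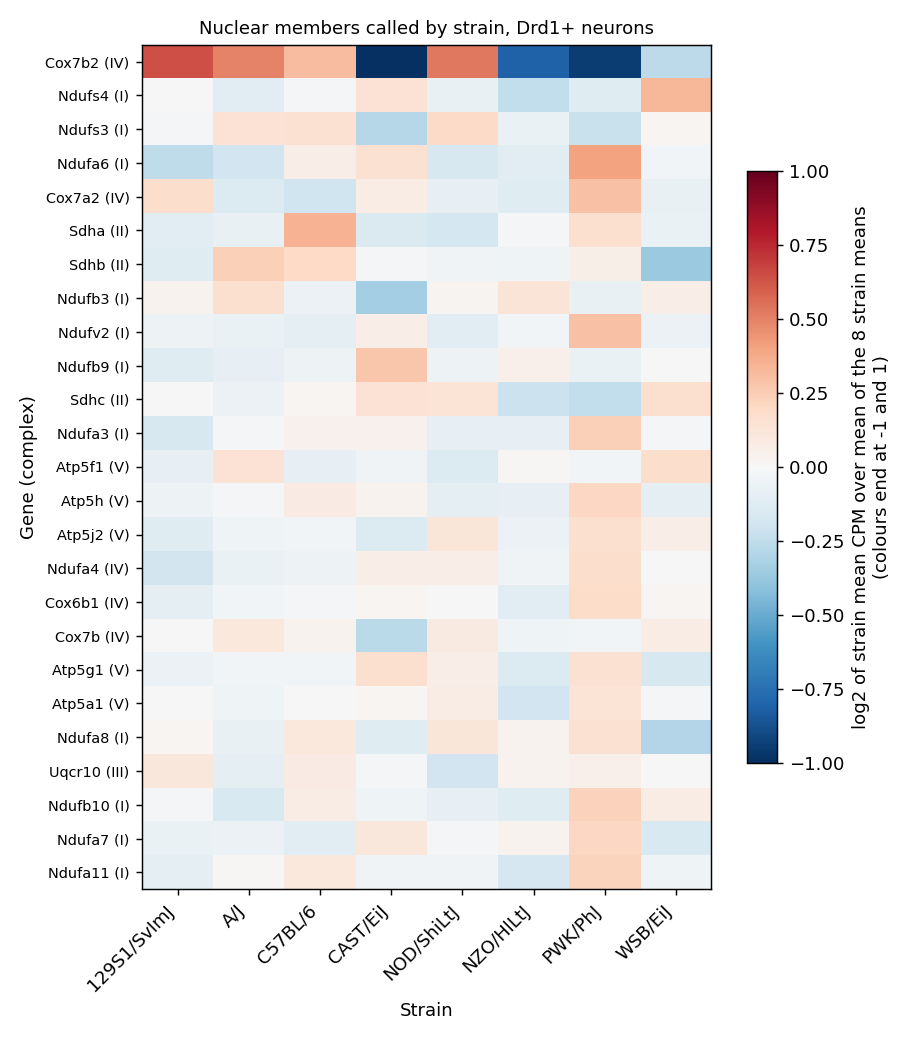
The 25 nuclear members with a strain effect in Drd1+ neurons (rows, with complex) in the 8 strains (columns), coloured by the log2 of each strain's mean CPM over the mean of the 8 strain means, with colours ending at -1 and 1. Cox7b2 shows the widest spread, and the PWK/PhJ column is above the mean for most members.

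PWK/PhJ had more members above the other strains in Drd1+ neurons than any other strain. In Drd1+ neurons 20 of 78 nuclear members were higher in PWK/PhJ than in the other 7 strains and 3 were lower, beside 17.0% and 17.3% of all genes. Of the 13 mt- members 11 passed at an unadjusted p under 0.05, and the 10 that edgeR called were all higher. The summed mt- share of Drd1+ counts was highest in PWK/PhJ in 0 of 4 batches and in WSB/EiJ in 3 of 4, with means of 1.58% and 1.53%. The median log2 difference was 0.10 over nuclear members, 59 of 78 above 0, and 0.15 over mt- members, 11 of 13 above 0, beside 0.01 over all genes. CAST/EiJ and WSB/EiJ also had 11 of 13 mt- members above 0, with medians of 0.019 and 0.035. The share of all genes above 0 is not given here. Higher members came from complex I (9 of 36), complex II (1 of 4), complex IV (4 of 13) and complex V (6 of 17), with none of 8 in complex III. Ndufa6 (0.48, SE 0.077, edgeR adjusted p = 2.85e-06), Cox7a2 (0.35, SE 0.066, 3.40e-05) and Ndufv2 (0.33, SE 0.060, 1.73e-05) had the largest rises, and Cox7b2, Sdhc and Ndufs3 fell.

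The other strains had between 0 and 4 nuclear members higher and between 0 and 5 lower in Drd1+ neurons. These were 2 higher and 2 lower in 129S1/SvImJ (7.72% and 4.58% of all genes), 4 and 0 in A/J (10.6% and 6.66%), 4 and 1 in C57BL/6 (8.01% and 5.93%), and 3 and 5 in CAST/EiJ (16.8% and 15.9%). NOD/ShiLtJ had 2 and 1 (9.40% and 6.48%), NZO/HlLtJ 0 and 4 (11.0% and 8.74%) and WSB/EiJ 2 and 2 (9.66% and 7.30%). With 1 batch left out, the calls of these 7 strains, 32 in all, came to 18 without batch 1, 18 without batch 2, 22 without batch 3 and 24 without batch 4, and the 4 rises each in A/J and C57BL/6 to between 1 and 3. The shares of all genes called with 1 batch left out are not given here. Each strain is part of the reference mean of the others, so the contrasts share mice. In Drd2+ neurons 14 nuclear members were higher and 3 lower in PWK/PhJ (15.2% and 15.1% of all genes), and 3 mt- members were higher. In oligodendrocytes 5 nuclear members were higher and 0 lower (7.39% and 8.32%), and 0 of 13 mt- members were called. In astrocytes 0 of 78 nuclear members were called in PWK/PhJ. There 0 mt- members were higher and 1 was lower (4.78% and 4.17% of all genes). The astrocyte median was -0.15 over mt- members, 2 of 13 above 0.

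Other measures of the same nuclei were set beside the PWK/PhJ rise, and their relation to it was not tested. In Drd1+ neurons PWK/PhJ had the highest nuclear member share in 4 of 4 batches, with a mean of 0.578% beside 0.510 to 0.546%, and the highest share of cytoplasmic ribosomal protein mRNA in 4 of 4 batches, 1.53% beside 1.26 to 1.38%. Its share of Malat1, an RNA kept in the nucleus, was the lowest in 3 of 4 batches, 3.70% beside 4.03 to 5.10%. Of the 3 nuclear RNA genes listed (Malat1, Meg3 and Snhg11) 1 was higher and 2 were lower in PWK/PhJ, and Snhg11 was highest there, at 2469 CPM beside 706 CPM in NZO/HlLtJ, the lowest. Of 88 tested ribosomal protein genes 53 were higher in PWK/PhJ and 3 lower, with a median of 0.15. With the log2 mt- share of each mouse's Drd1+ counts as a covariate, 2 nuclear members were higher in PWK/PhJ. The difference of Cox7a2 was then 0.16 in place of 0.35. That covariate itself differed between strains, with mean mt- shares of 1.58% in PWK/PhJ and 1.27% in A/J. Without batch 3, 8 nuclear and 0 mt- members were higher. The shares of all genes higher in PWK/PhJ with the covariate or without batch 3 are not given here. A loss of calls over all genes therefore cannot be told apart from one in the members. The part of cytoplasmic RNA in the nuclear member rises was not tested.

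**Figure D5:**
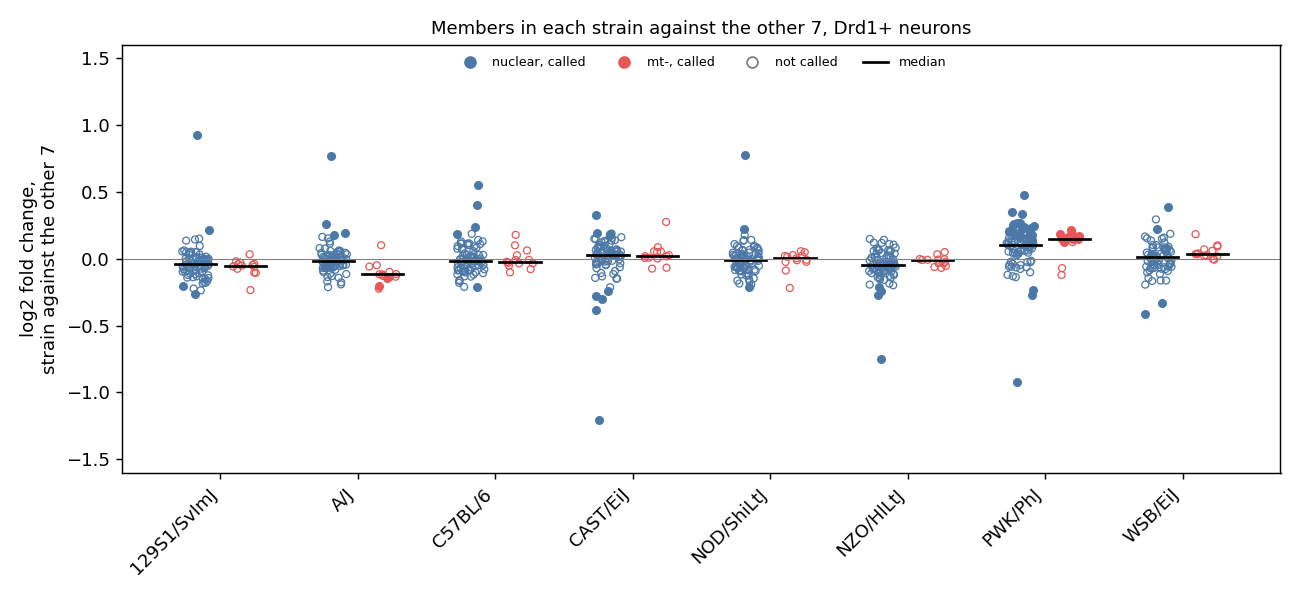
Log2 fold change of each member in Drd1+ neurons, for 1 strain set against the other 7 (blue nuclear, red mt-, filled where called at an adjusted p under 0.05, bar the median). PWK/PhJ has 20 filled nuclear points above 0 and 3 below, and 10 filled mt- points above 0.

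Among the mt- members the strain term called mt-Nd3 (adjusted p = 0.00734), mt-Co3 (0.0151), mt-Cytb (0.0390) and mt-Nd1 (0.0446) in Drd1+ neurons. For mt-Nd3 the PWK/PhJ mice stood at 489, 512, 460 and 559 CPM and the A/J mice at 441, 412, 312 and 508 CPM. For mt-Co3 the PWK/PhJ mice stood at 2994, 2973, 2886 and 3432 CPM and the A/J mice at 2636, 2442, 1968 and 2963 CPM. In each batch PWK/PhJ was above A/J, although the groups overlapped over batches. A/J was lower than the other strains in mt-Co3 by 0.20 (SE 0.056, adjusted p = 0.00827) and in mt-Co2 by 0.15 (SE 0.052, adjusted p = 0.0404). The strain calls of mt-Cytb and mt-Nd1 were lost whichever batch was left out (adjusted p of 0.0590 to 0.148 and 0.0665 to 0.165). That of mt-Co3 reached up to 0.0830, and that of mt-Nd3 held, at 0.0212 to 0.0469. For mt-Co1, not called (0.0819), the adjusted p was 0.00125 without batch 3 and 1.57e-06 with no expression filter, and up to 0.371 without batch 2. Without the batch term 0 mt- members were called. The 2 falls in A/J stand beside 6.66% of all genes lower there with all batches and nuclei kept. They came to 0 without batch 2 and to 0 without the batch term, and to 8 among nuclei under 5% mt- counts, where 3 members were higher in PWK/PhJ.

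Within the mt- counts of PWK/PhJ, mt-Co1 took a smaller part. Its share of mt- counts in Drd1+ neurons was lowest in PWK/PhJ in 4 of 4 batches, at 0.864 times the batch mean (SD 0.0431, range 0.809 to 0.914), and over all clusters it was 0.884 times. Its own level in PWK/PhJ did not pass the test in Drd1+ neurons, with a difference of -0.12. In astrocytes it fell by 0.27 (SE 0.084, adjusted p = 0.0287), and the strain term called mt-Co1 in astrocytes (adjusted p = 0.0104), oligodendrocytes (0.0176) and the cluster Drd1+ neuron_2 (0.0164). With 1 batch left out these p-values reached up to 0.0775 in astrocytes and 0.0930 in oligodendrocytes. A/J had the highest share of mt-Nd2 in 4 of 4 batches, 1.06 times the batch mean, and WSB/EiJ the highest share of mt-Co2, 1.02 times. Reads were counted against 1 reference genome. As for the nuclear members, a strain difference in mtDNA sequence therefore cannot be told apart here from one in RNA level.

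The strain effects were compared between the Drd1+ and Drd2+ neurons of the same mice with an interaction term. The edgeR test called 0 of 78 nuclear and 0 of 13 mt- members (4 and 0 at an unadjusted p under 0.05), beside 4.58% of all 13791 genes. Ndufc2, an accessory subunit of complex I, came closest (F = 3.33, adjusted p = 0.0551). In NZO/HlLtJ it fell by 0.48 in Drd2+ neurons (adjusted p = 0.000378), beside 0.01 in Drd1+ neurons. Without batch 3 the interaction called it (adjusted p = 0.00636).

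Related pathways were set beside the members in Drd1+ neurons, on the same call of 61.7% of all genes. Of 46 tested assembly factors, 25 were called by strain, led by Cox19, an assembly factor of complex IV (31.3 ± 6.75 CPM in A/J and 9.73 ± 2.68 CPM in NZO/HlLtJ, SD, n = 4 mice each). Of 24 regulators of mitochondrial genes, 13 were called, led by Lrpprc, which binds mt- mRNA (121 CPM in A/J and 67.4 CPM in NZO/HlLtJ). Calls came to 8 of 11 genes of electron carriers, 8 of 12 of the citric acid cycle and 8 of 16 of glycolysis. Coq2, of ubiquinone synthesis, stood at 64.6 CPM in NZO/HlLtJ and 27.4 CPM in CAST/EiJ, Idh3b, of the citric acid cycle, at 101 CPM in CAST/EiJ and 48.0 CPM in PWK/PhJ, and Eno1, of glycolysis, at 46.5 CPM in C57BL/6 and 22.2 CPM in CAST/EiJ. In PWK/PhJ, 17.0% of all genes were higher and 17.3% lower. Of the 46 assembly factors, 5 were higher and 8 lower there, with a median of -0.03. Of the 24 regulators, 7 were higher and 4 lower, with a median of -0.05. Electron carriers, the citric acid cycle and glycolysis each had 1 gene higher and 2 lower. Of 5 genes of neuronal activity (Fos, Junb, Egr1, Arc and Npas4), 2 were higher and 0 lower in PWK/PhJ, with a median of 0.68. The strain term called 0 of them, and 5 genes are few to set beside the 17.0% of all genes higher.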

How the data were processed

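Counts per gene and nucleus were deposited by the authors as whole-number UMI counts against mm10 (GRCm38). Per the submitters' processing notes, Cell Ranger ARC 2.0.0 and bcl2fastq 2.20.0.422 were used, and whether introns were counted is not given in the sources used here. Per the text deposited with the files, the authors assigned nuclei to strains with Demuxlet, kept nuclei of over 200 and under 7500 genes and under 15% mitochondrial counts, removed doublets with DoubletFinder, and removed further nuclei on biological relevance. The clusters and their names are the authors' deposited annotation. Deposited accessible regions were used by position only.

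Counts of nuclei with a cluster name were summed per mouse (batch and strain) and cluster, leaving out sums of under 10 nuclei. Total counts per sum in tested clusters ran from 20750 to 9416806. Clusters with at least 3 mice of every strain were tested with edgeR 4.0.16 (R 4.3.3, quasi-likelihood F test, robust, TMM scaling, filterByExpr by strain, terms for strain and batch, Benjamini-Hochberg adjustment over all tested genes). CPM by mouse in tested clusters is TMM-scaled, CPM by cluster is not. Sex was not a term. Batch was kept as a block because the labels give it as a shared pool: deviations of mice of the same batch correlated at 0.174 on average (112 pairs), beside -0.057 across batches (336 pairs). The p-values measure the spread between mice. On simulated data with 2-fold changes the strain term recovered 79.6% of 196 changed genes among 13012 with 3.70% false calls. The interaction recovered 63.2% of 193 among 13211 with 6.87% false calls. Few genes were changed, each in 1 strain, whereas the strain term called 61.7% of all genes in the real Drd1+ neurons. These rates do not describe the smaller changes of most members.

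Genes were named by a rule: every mt- member, the most abundant member and the one with the largest F in each complex, the 10 with the largest F of the strain term in Drd1+ neurons, the called member with the largest change in each strain, the 5 with the largest F of the batch term and of the strain term in 3 other clusters, and the complex IV and complex V isoform sets. Ndufc2 and the other genes called in single contrasts were named after their values were seen. Members, lists and rule were chosen with earlier results of these data known. The 12 alternatives included DESeq2 1.42.0, RLE size factors, no expression filter, no batch term, leaving out each batch, nuclei under 5% mt-, the mt- share as covariate and 20 nuclei as minimum. No alternative was added later.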

Additional observations from a re-analysis of the deposited data

Results flagged for a closer look

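In groups of 4 mice, 1 mouse per batch, a value was singled out where its distance to the nearest other mouse exceeded Dixon's 95% critical value for the gap as a part of the group's whole range. Of 152 groups examined, 7 (4.61%) held such a mouse, and chance alone gives about 1 in 20. In Drd1+ neurons these were Cox7b2 in 1 NOD/ShiLtJ mouse at 19.6 CPM, Ndufs4 in 1 NZO/HlLtJ mouse at 125.1 CPM, and Sdha in 1 A/J mouse at 58.93 CPM. The nuclear member share of 1 129S1/SvImJ mouse in Drd1+ neurons was 0.4567%, the lowest of its strain. In oligodendrocytes mt-Co1 was low in the batch 3 mouse of 3 strains, at 4011 CPM in C57BL/6, 2875 CPM in CAST/EiJ and 3509 CPM in WSB/EiJ, in the batch where all 8 strains had their lowest mt- share over all nuclei.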

How the results depend on the processing

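Of 780 values of 67 called contrasts under the alternatives run, 552 kept their call, 228 lost it and 0 changed direction. The shares of all genes called under the alternatives are not given here. Lost calls are therefore not a result about the members. Without the replicate block (the batch term), strain calls of nuclear members came to 11 (Drd1+), 13 (Drd2+), 1 (oligodendrocytes) and 0 (astrocytes), those of mt- members to 0 in each cluster, PWK/PhJ rises to 9 nuclear and 0 mt-, its falls to 1, A/J mt- falls to 0, and nuclear calls of the other 7 strains to 17. With no expression filter, nuclear strain calls were 14 (Drd1+), 13 (Drd2+) and 1 (oligodendrocytes), with 3 mt- in the 5 other clusters, PWK/PhJ nuclear rises 13, the other strains 19, with 1 mt- rise. DESeq2 gave 1 nuclear and 0 mt- strain calls in oligodendrocytes, 1 and 2 in the 5 other clusters, and 21 nuclear calls in the other strains. RLE size factors gave 0 nuclear calls in astrocytes. Among nuclei under 5% mt- there were 2 in oligodendrocytes and 0 in astrocytes, with 3 mt- rises in PWK/PhJ and 8 falls in A/J. The mt- share as covariate gave 2 nuclear strain calls in astrocytes, 1 in the 5 other clusters, 27 batch calls in oligodendrocytes, 11 in the 5 other clusters and 2 PWK/PhJ rises.

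Leaving out each batch in turn, nuclear strain calls ran from 14 to 17 (Drd1+), 12 to 19 (Drd2+), 1 to 5 (oligodendrocytes) and 0 to 1 (astrocytes, and the 5 other clusters). Strain calls of mt- members ran from 1 to 3, 1 to 5, 0 to 1, 0 to 1 and 0 to 2 in the same order. Batch calls of nuclear members ran from 17 to 41, 11 to 35, 29 to 52, 2 to 19 and 11 to 86, and of mt- members from 9 to 12, 9 to 12, 5 to 13, 3 to 13 and 2 to 47. PWK/PhJ rises ran from 8 to 19 (nuclear) and 0 to 8 (mt-), its falls from 2 to 4, A/J mt- falls from 0 to 2, and nuclear calls of the other 7 strains from 18 to 24. The shares of all genes called in these runs are not given here either, and the cause of these changes was not tested.

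Nuclear shares among nuclei under 5% mt- were 0.976% in oligodendrocytes, 1.02% in astrocytes, 1.05% in macrophages, 0.845% in endothelium and 0.559% in ependyma. The mt- share as a median over nuclei was 1.15% in batch 3 and 1.99% in batch 4. The summed value of the 5 other clusters could not be had under 5% mt- or with 20 nuclei. Few counts per mouse limit Cox7b2 and Cox6b2.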
